A study of Mus musculus with 8 samples.

Results

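The genes described here are 31 markers of Kupffer cells and other macrophages, taken by name from the 27277 rows of the series' RNA count table, and all 31 were found there. They were measured in mouse primary hepatocyte preparations from Lcmr1f/f mice that also carried albumin-cre (knockout, 3 RNA libraries and 1 ChIP library) and from Lcmr1f/f mice without that label (control, 3 RNA libraries and 1 ChIP library). The gene Lcmr1 is now called Med19 and encodes part of Mediator, a large complex through which transcription factors on DNA reach RNA polymerase II. Cells of both genotypes were kept in culture for 24 h and were given 100 nM glucagon for 12 h, so the floxed alleles, the culture and the hormone are common to all groups and by label only the Cre transgene and the deletion differ. Albumin is made by hepatocytes, so its promoter directs Cre to these cells. The sources used here do not give the age, sex or strain of the mice, or whether animals were pooled. They also do not tie each numbered library to an animal of its own, so p-values refer to the spread of these libraries, and that spread may be technical.

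Kupffer cells are the macrophages that live in the liver sinusoids. They are seeded before birth, renew themselves locally, clear particles and old red cells from portal blood, and carry a characteristic set of surface receptors such as Clec4f, Vsig4 and Timd4. When resident cells are lost, monocytes recruited from blood through the chemokine receptor Ccr2 can settle and take on part of that programme, with Clec4f and Vsig4 gained earlier than Timd4. Antigen-presenting cells, among them dendritic cells, B cells and some macrophages, load peptides on MHC class II molecules, made of an alpha and a beta chain that assemble on the invariant chain Cd74. A hepatocyte preparation made by digesting the liver can hold some of these cells.

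Total counts per RNA library lay between 25305697 and 26344039 in the knockouts and between 22191786 and 26595249 in the controls. The targeted gene Med19 had 2.91, 5.27 and 3.02 CPM (the count scaled to the library size, itself adjusted by TMM) in the knockouts, against 7.5, 10.8 and 13.4 CPM in the controls (log2 fold change -1.5, SE 0.312, edgeR adjusted p = 0.012, or -1.35 with an adjusted p of 0.0505 without knockout replicate 1). Its row covers the whole gene, not the deleted part alone, and overlaps Zdhhc5 and Tmx2 on the other strand. The hepatocyte label was checked on 14 hepatocyte markers, among them Alb, Apob and Cyp2e1, which made up 4.2 to 5.33% of all counts in the knockouts and 10.5 to 10.8% in the controls. All 14 fell in the knockout, with a median log2 fold change of -1.25, so the RNA over which CPM values are shared out differed between the genotypes. Control replicate 1 stood apart from its group, with chi-square values per degree of freedom of 150 and 143 over genes against control replicates 2 and 3, which had 7.41 between them.

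Macrophage markers were more abundant in the knockout libraries. Together the 31 genes took 0.128, 0.149 and 0.163% of all counts in knockout replicates 1 to 3, against 0.0433, 0.0584 and 0.056% in control replicates 1 to 3. Their summed level was 1200 ± 122 CPM in the knockouts and 643 ± 72.3 CPM in the controls (SD, n = 3 each), a ratio of 1.86. All 31 were tested in the edgeR fit over 15135 genes, and 17 rose and 0 fell at an adjusted p under 0.05. The 17 include Ccr2, which passed the filter on low counts through the knockout libraries alone. In the same fit 12.6% of all genes tested were called higher and 13% lower, or 25.5% in either direction. At an unadjusted p under 0.05, 19 of the 31 were higher and 0 lower, and 5990 of all 15135 genes passed in either direction. The median log2 fold change of the 31 was 0.78, against 0.01 for all genes tested, and 30 of the 31 lay above 0. For 20 of them every knockout library lay above every control library, as was the case for 23.5% of all genes tested. Without knockout replicate 1 the number that rose was 11 (7.29% of all genes tested), and it was also 11 without control replicate 2 (7.21%). Scaled by library size alone, 28 rose and 0 fell, but 50.9% of all genes tested were then called higher and the median of all genes moved to 0.6. In bulk RNA a larger number of macrophages and more of these transcripts per macrophage cannot be told apart. Stellate, endothelial and lymphocyte markers had median log2 fold changes of 0.51, 0.44 and 0.74 in the same fit, and the part of other cells, and of the lower share of hepatocyte RNA, in these results was not tested.

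**Figure D1:**
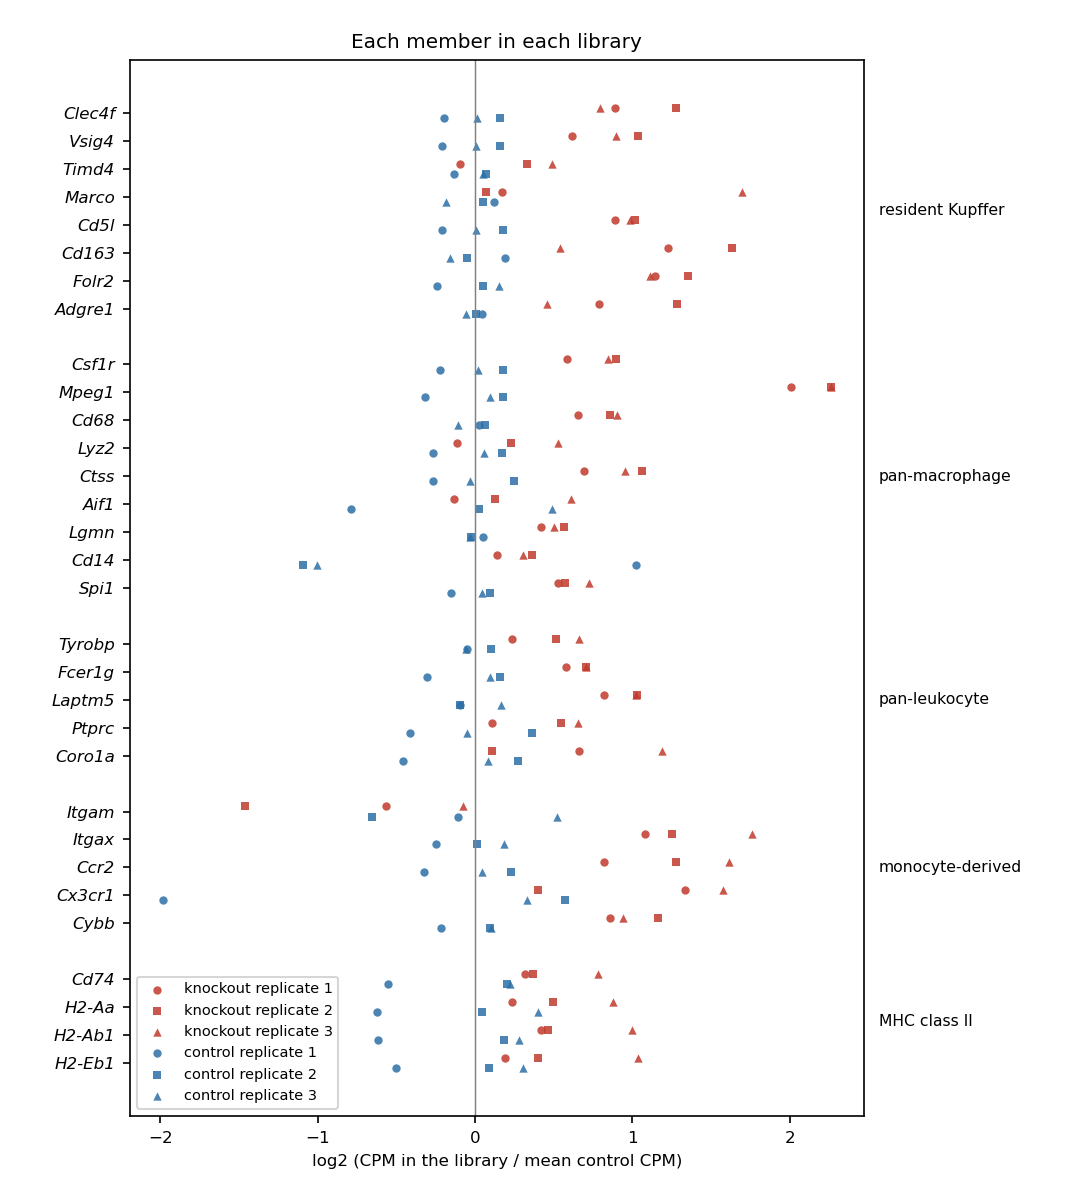
Level of each of the 31 markers in each library, as log2 of its CPM over the mean control CPM of that gene (x axis), with knockout libraries in red and control libraries in blue and a symbol for each replicate number. Most knockout points of the resident Kupffer and pan-macrophage genes lie above 0, Mpeg1 lies above 2, and Cd14 in control replicate 1 and Marco in knockout replicate 3 stand away from their groups.

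Gene starts of the markers give a view of their sequence. Promoter sequences from RefSeq (GRCm38.p6, the assembly that mm10 names) were matched by symbol for 24 of the 31 genes, and the 250 bases before the start are used. Cd5l (chr3:87357631-87357880, plus strand) and Vsig4 (chrX:96293439-96293688, minus strand) stand for resident Kupffer genes that rose, Mpeg1 (chr19:12460520-12460769, plus strand) for the marker with the largest fold change, and H2-Aa (chr17:34287824-34288073, minus strand) and H2-Eb1 (chr17:34305617-34305866, plus strand) for the MHC class II genes. Capitals mark a PU box, GAGGAA or its reverse complement TTCCTC, a core bound by the myeloid factor PU.1 that the marker Spi1 encodes, or a Y box, CTGATTGG or its reverse complement CCAATCAG, part of the control region that class II promoters share, and the Mpeg1 window holds neither.
Cd5l: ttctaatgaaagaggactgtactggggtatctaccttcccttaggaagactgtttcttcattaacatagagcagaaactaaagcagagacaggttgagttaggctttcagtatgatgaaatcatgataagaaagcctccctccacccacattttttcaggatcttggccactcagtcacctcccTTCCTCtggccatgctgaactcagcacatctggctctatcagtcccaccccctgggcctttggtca
Vsig4: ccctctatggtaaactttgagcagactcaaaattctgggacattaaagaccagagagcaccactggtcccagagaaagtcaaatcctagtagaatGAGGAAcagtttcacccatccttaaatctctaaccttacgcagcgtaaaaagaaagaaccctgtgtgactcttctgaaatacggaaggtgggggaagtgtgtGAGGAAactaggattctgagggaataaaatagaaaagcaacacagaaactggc
Mpeg1: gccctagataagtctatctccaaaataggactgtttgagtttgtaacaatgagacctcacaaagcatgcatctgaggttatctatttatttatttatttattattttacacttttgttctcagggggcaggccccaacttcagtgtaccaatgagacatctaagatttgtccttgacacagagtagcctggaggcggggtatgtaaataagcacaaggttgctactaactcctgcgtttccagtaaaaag
H2-Aa: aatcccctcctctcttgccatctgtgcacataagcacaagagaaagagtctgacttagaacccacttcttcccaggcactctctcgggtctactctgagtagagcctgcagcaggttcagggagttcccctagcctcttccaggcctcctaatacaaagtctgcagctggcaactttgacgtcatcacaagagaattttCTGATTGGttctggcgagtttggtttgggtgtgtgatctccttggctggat
H2-Eb1: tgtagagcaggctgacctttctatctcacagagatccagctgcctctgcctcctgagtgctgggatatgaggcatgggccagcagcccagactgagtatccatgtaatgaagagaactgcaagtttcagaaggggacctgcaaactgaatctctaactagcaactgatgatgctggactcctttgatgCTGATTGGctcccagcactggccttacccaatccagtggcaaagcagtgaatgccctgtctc
The PU box was found in 9 of the 24 genes, a share of 37.5%, and in 25.9% of all 27025 genes with a promoter in the table. Of the matched resident Kupffer genes that rose, Cd5l and Vsig4 held it, and Clec4f, Cd163 and Folr2 did not. The Y box was found in 2 of the 24, H2-Aa and H2-Eb1, and in 4.43% of all genes, and it began 51 bases before the start of H2-Aa and 62 bases before that of H2-Eb1. The class II genes Cd74 and H2-Ab1 were not among the 24 matched genes, so they were not searched. No PU box and Y box overlapped in these windows. These matches describe letters and show no binding.

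Most genes of resident Kupffer cells rose. Of 8 genes, 6 rose and 0 fell, against 12.6% and 13% of all genes tested, and the median log2 fold change was 0.93. Clec4f (ENSMUSG00000014542, chromosome 6, 83644542 to 83656187, mm10, minus strand), a lectin receptor that in mice is specific to Kupffer cells, stood at 137, 179 and 128 CPM in the knockout libraries, against 64.3, 82.4 and 74.5 CPM in the controls. Its groups did not overlap, and its fold was 2.01 (95% interval 1.55 to 2.6, edgeR adjusted p = 0.00462). Cd5l, a secreted scavenger protein of macrophages, had 125, 137 and 134 CPM in the knockouts and 58.4, 76.5 and 67.8 CPM in the controls. It rose 1.95-fold (1.6 to 2.39, adjusted p = 0.00204), with the narrowest interval of the class on the log2 scale (SE 0.125). Vsig4, the complement receptor with which Kupffer cells catch opsonised bacteria, had 24.1, 32.2 and 29.2 CPM in the knockouts and 13.6, 17.5 and 15.8 CPM in the controls. It rose 1.82-fold (1.42 to 2.34, adjusted p = 0.00712).

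The other genes of that class rose with more spread or did not pass. Cd163, the receptor for haemoglobin bound to haptoglobin, had 38.6, 51.2 and 24 CPM in the knockouts, against 18.8, 15.9 and 14.8 CPM in the controls (log2 fold change 1.2, SE 0.264, adjusted p = 0.0159). Adgre1, which encodes the F4/80 antigen, had 16.4, 23.1 and 13 CPM in the knockouts, against 9.79, 9.54 and 9.1 CPM in the controls (0.89, SE 0.217, adjusted p = 0.0226). In both, knockout replicate 2 was the highest library and knockout replicate 3 the lowest of the knockouts. Folr2, a folate receptor of resident macrophages, was sparse, with 63, 74 and 64 counts in the knockouts and 16, 20 and 19 counts in the controls. It rose by a log2 fold change of 1.21 (SE 0.268, adjusted p = 0.0157). Its row overlaps Gm10602 on the other strand, which had 72 counts over all 6 libraries, against 256 for Folr2. Without knockout replicate 1 or without control replicate 2 none of these 3 calls held, and the highest adjusted p of each over the alternatives was 0.0609 for Cd163, 0.0734 for Adgre1 and 0.0549 for Folr2.

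Timd4 and Marco did not pass. Timd4, a phosphatidylserine receptor that marks long-lived resident cells, had 5.65, 7.59 and 8.45 CPM in the knockouts and 5.5, 6.34 and 6.25 CPM in the controls. The groups overlapped, with a log2 fold change of 0.26 (95% interval -0.21 to 0.73, adjusted p = 0.377). Marco, a scavenger receptor for bacteria, had 27.1, 25.3 and 78.1 CPM in the knockouts and 26.2, 25 and 21.2 CPM in the controls. Knockout replicate 3 alone was high, and the other knockout libraries were close to the controls. Its log2 fold change of 0.85 (SE 0.454, adjusted p = 0.216) became 0.11 without that library (adjusted p = 0.643).

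Among 9 pan-macrophage genes 6 rose and 0 fell, against 12.6% and 13% of all genes tested, with a median log2 fold change of 0.61. Mpeg1 (ENSMUSG00000046805, chromosome 19, 12460779 to 12465284, mm10, plus strand), which encodes the pore-forming protein perforin-2, had 173, 206 and 206 CPM in the knockouts, against 34.5, 48.6 and 46.0 CPM in the controls. The groups were far apart, and its fold of 4.53 (95% interval 3.5 to 5.86, adjusted p = 0.000339) was the largest of the 31 genes. Csf1r, the receptor for the growth factors on which macrophages depend, had 67.8, 84.2 and 81.2 CPM in the knockouts and 38.8, 51.1 and 45.8 CPM in the controls. It rose 1.72-fold (1.37 to 2.15, adjusted p = 0.00697), and part of its row overlaps Hmgxb3 on the other strand. The cysteine protease Ctss, which trims the invariant chain, had 38.6, 49.9 and 46.3 CPM in the knockouts and 19.9, 28.4 and 23.4 CPM in the controls (1.88-fold, adjusted p = 0.00683).

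A lysosomal protein, a lysosomal protease and a transcription factor of the class also rose. Cd68, a lysosomal glycoprotein, had 17.0, 19.6 and 20.2 CPM in the knockouts, against 11.0, 11.3 and 10.0 CPM in the controls (1.75-fold, 95% interval 1.41 to 2.18, adjusted p = 0.0054). The asparaginyl protease Lgmn had 91.1, 101 and 96.6 CPM in the knockouts, against 70.7, 67.0 and 66.8 CPM in the controls, a rise of 1.41-fold (1.21 to 1.65, adjusted p = 0.00929). Spi1, which encodes PU.1, had 10.4, 10.7 and 11.9 CPM in the knockouts, against 6.48, 7.68 and 7.43 CPM in the controls (1.53-fold, adjusted p = 0.0253). The Spi1 call ended when any single library but control replicate 1 was omitted, with an adjusted p of up to 0.0748.

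Lyz2, Aif1 and Cd14 did not pass. Lyz2, the lysozyme gene whose promoter is used to drive Cre in myeloid cells, had 48.0, 61.0 and 75.0 CPM in the knockouts and 43.2, 58.6 and 54.1 CPM in the controls, with a log2 fold change of 0.24 (95% interval -0.19 to 0.67, adjusted p = 0.375). Its close paralogue Lyz1 had 11 counts over all 6 libraries. Aif1, an actin-binding protein of macrophages, had 3.07, 3.68 and 5.14 CPM in the knockouts and 1.95, 3.43 and 4.74 CPM in the controls (0.24, adjusted p = 0.656). For Cd14, the co-receptor for bacterial lipopolysaccharide, the values were 8.07, 9.43 and 9.04 CPM in the knockouts and 14.9, 3.43 and 3.66 CPM in the controls. Control replicate 1 lay above all knockouts and the other controls below all of them, and the log2 fold change of 0.27 (adjusted p = 0.756) became 1.31 (adjusted p = 0.00147) without that library.

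**Figure D2:**
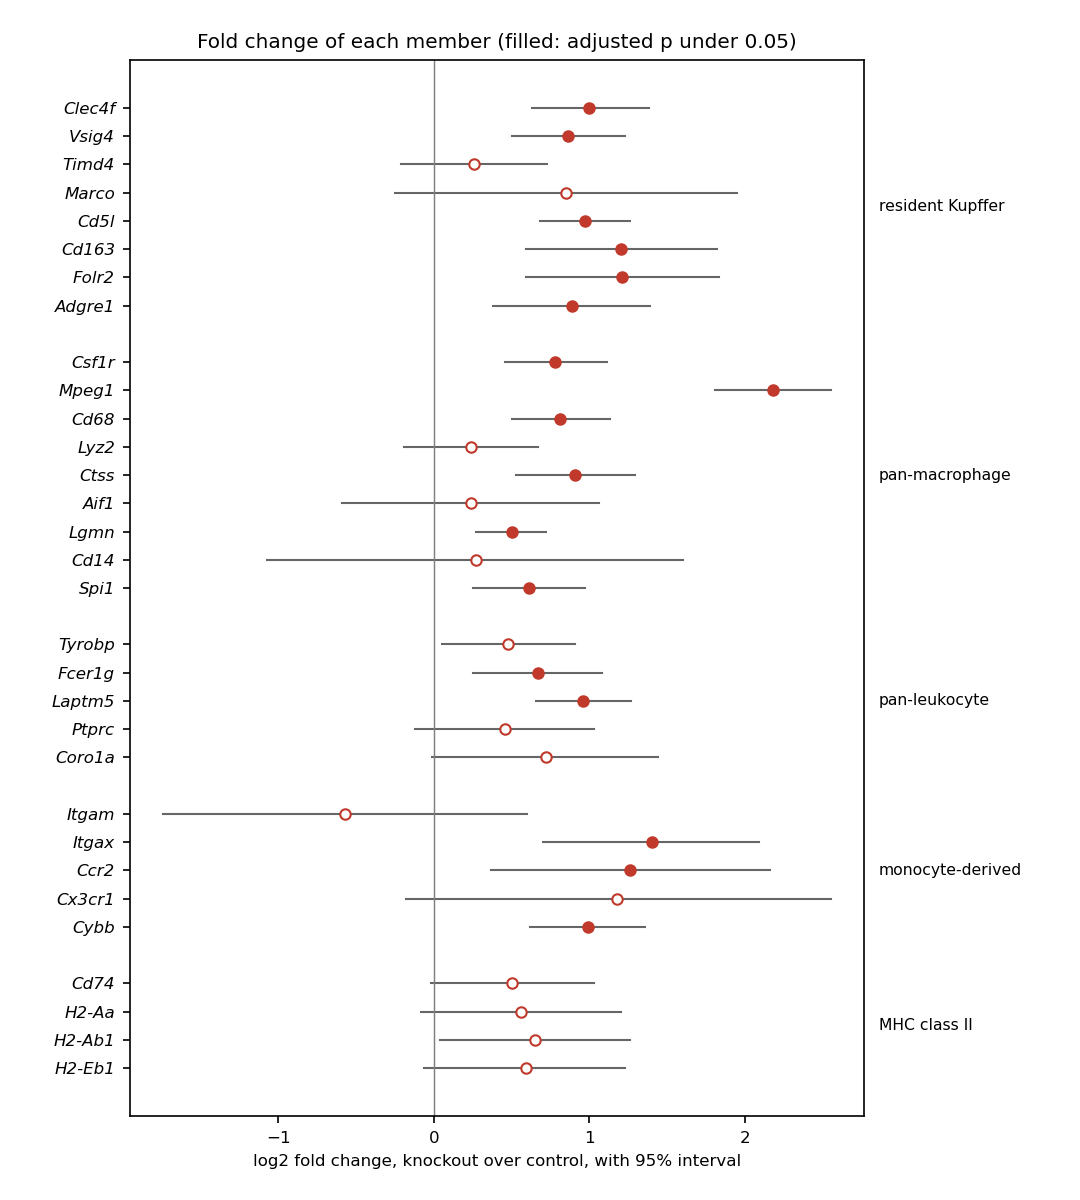
Log2 fold change of the 31 markers, knockout over control, with the 95% interval from the edgeR fit (lines), and filled points for an adjusted p under 0.05. Mpeg1 at 2.18 lies outside the range of the others, which runs from -0.57 for Itgam to 1.4 for Itgax, and the 4 MHC class II genes lie between 0.5 and 0.65 with open points.

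Genes shared by most white blood cells rose in 2 of 5 cases, against 12.6% of all genes tested. Laptm5, a lysosomal protein of blood cells, had 27.7, 32.0 and 31.9 CPM in the knockouts and 14.7, 14.7 and 17.6 CPM in the controls (1.95-fold, 95% interval 1.58 to 2.41, adjusted p = 0.00245). Fcer1g, a signalling chain of Fc receptors, had 9.62, 10.5 and 10.5 CPM in the knockouts and 5.21, 7.2 and 6.89 CPM in the controls (1.59-fold, adjusted p = 0.0306). The Fcer1g call likewise ended when any of those 5 libraries was omitted, with an adjusted p of up to 0.0874. Tyrobp, the related signalling adaptor of myeloid receptors, had 6.52, 7.94 and 8.76 CPM in the knockouts and 5.36, 5.96 and 5.33 CPM in the controls, with no overlap and an adjusted p of 0.0925. Ptprc, the leukocyte antigen CD45, had 6.97, 9.47 and 10.2 CPM in the knockouts and 4.87, 8.3 and 6.25 CPM in the controls, and its groups overlapped (log2 fold change 0.46, 95% interval -0.12 to 1.03, adjusted p = 0.209). Coro1a, an actin regulator of leukocytes whose row overlaps Bola2 on the other strand, had 7.72, 5.27 and 11.1 CPM in the knockouts and 3.56, 5.91 and 5.17 CPM in the controls (0.72, adjusted p = 0.131).

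Of the 5 genes of monocytes and monocyte-derived cells, 3 rose and 0 fell, at low levels for all but Cybb. Over all genes tested 12.6% were called higher and 13% lower. Cybb, the catalytic subunit of the phagocyte NADPH oxidase, had 15.1, 18.6 and 16 CPM in the knockouts and 7.16, 8.87 and 8.94 CPM in the controls (1.99-fold, 95% interval 1.54 to 2.57, adjusted p = 0.00462). Itgax, the integrin CD11c of dendritic cells and some macrophages, had 68, 78 and 113 counts in the knockouts and 18, 22 and 22 counts in the controls, or 2.73 ± 0.699 CPM in the knockouts and 1.04 ± 0.154 CPM in the controls (SD, n = 3 each). It rose 2.63-fold (1.63 to 4.25, adjusted p = 0.0134). Ccr2, the receptor that brings monocytes out of the marrow, had 20, 28 and 36 counts in the knockouts and 6, 9 and 7 counts in the controls (log2 fold change 1.26, SE 0.387, adjusted p = 0.0475). Ccr2 passed the filter on low counts through the knockout libraries alone, so its rise is no independent evidence. Its call was lost in each of the 6 fits without 1 library, without a count filter (adjusted p = 0.0957) and with DESeq2 (adjusted p = 0.071).

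Itgam and Cx3cr1 did not pass. Itgam, the integrin CD11b that is high on monocytes and low on Kupffer cells, had 11, 6 and 16 counts in the knockouts and 10, 7 and 14 counts in the controls. It was the 1 marker below 0, with a log2 fold change of -0.57 (95% interval -1.74 to 0.6, adjusted p = 0.434). Cx3cr1, the fractalkine receptor, had 30, 16 and 37 counts in the knockouts and 2, 12 and 9 counts in the controls (1.18, 95% interval -0.18 to 2.55, adjusted p = 0.177). Its row spans 119901616 to 120069879 on chromosome 9 and overlaps other genes on both strands, so its counts are uncertain.

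None of the 4 MHC class II genes passed the edgeR test, and all 4 had higher means in the knockout. At an unadjusted p under 0.05, 1 was higher, while 5990 of all 15135 genes tested passed in either direction. DESeq2 also called 0 of the 4, and with the replicate number as a block 3 passed. By library size alone all 4 passed as higher, as did 50.9% of all genes tested. Cd74, the invariant chain, had 51.4, 53.3 and 71.0 CPM in the knockouts and 28.2, 47.5 and 48.1 CPM in the controls (log2 fold change 0.5, 95% interval -0.02 to 1.03, adjusted p = 0.14). H2-Ab1, a beta chain, had 42.4, 43.8 and 63.4 CPM in the knockouts and 20.7, 36.0 and 38.4 CPM in the controls (0.65, 0.04 to 1.26, adjusted p = 0.107). For these genes the lowest knockout library lay above the highest control. The alpha chain H2-Aa had 25.2, 30.2 and 39.3 CPM in the knockouts, against 13.9, 22.1 and 28.3 CPM in the controls, with an adjusted p of 0.172. H2-Eb1, a beta chain of the other class II molecule, had 26.9, 31.2 and 48.3 CPM in the knockouts, against 16.7, 25.1 and 29.2 CPM in the controls, with an adjusted p of 0.159. Knockout replicate 3 was the highest knockout and control replicate 1 the lowest control in all 4. The class II log2 fold changes ranged from 0.29 to 0.43 without knockout replicate 3 and from 0.29 to 0.42 without control replicate 1. The upper ends of the 4 intervals, from 1.03 to 1.26, include the log2 fold change of 1 found for Clec4f.

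Counts set against Clec4f in the same library do not depend on scaling, and they give each marker relative to a Kupffer cell gene. Mpeg1 had 126, 115 and 161 counts per 100 Clec4f counts in the knockouts, against 53.6, 59 and 61.7 in the controls, so it was higher relative to the Kupffer cell marker in every knockout library. Cybb had 11, 10.4 and 12.5 in the knockouts and 11.1, 10.8 and 12 in the controls, and Cd5l had 91.7, 76.3 and 105 in the knockouts and 90.8, 92.8 and 91 in the controls. For these genes the ratios to Clec4f overlapped between the groups. Lyz2 had 35.1, 34 and 58.7 per 100 Clec4f counts in the knockouts, against 67.1, 71.1 and 72.6 in the controls, and Timd4 had 4.13, 4.24 and 6.61 in the knockouts, against 8.55, 7.69 and 8.39 in the controls. Both were lower relative to Clec4f in every knockout library, as were Lgmn, Spi1, Tyrobp and Itgam. The MHC class II genes together had 107, 88.5 and 174 per 100 Clec4f counts in the knockouts and 124, 159 and 193 in the controls, and the groups overlapped. The monocyte-derived class had 14.7 ± 2.48 in the knockouts and 14.4 ± 1.17 in the controls (SD, n = 3 each). Cybb alone had a mean of 11.3 in each group, so the class sum mostly repeats that gene. The ratio of knockout to control means was 1.36 for Itgax, 1.25 for Ccr2, 1.27 for Cx3cr1 and 0.348 for Itgam, all at low counts. These ratios are given as a description, with no test.

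Against the geometric mean of the other markers Mpeg1 was higher by 1.46 ± 0.1 on the log2 scale in the knockouts than in the controls (SD over 3 knockout libraries, with 0.09 in the controls). Itgax, Folr2 and Ccr2 also lay above the control range in every knockout library, by 0.62 ± 0.19, 0.46 ± 0.24 and 0.5 ± 0.24. Lyz2 lay below it at -0.57 ± 0.15 and Timd4 at -0.55 ± 0.15, together with Lgmn, Spi1, Tyrobp, Ptprc and Itgam. Relative to Clec4f the groups overlapped for Itgax, Folr2, Ccr2 and Ptprc, and Ccr2 passed the filter on low counts through the knockouts alone. Resident genes differed among themselves within a library. In knockout replicate 2 they ran from -0.71 for Marco and -0.44 for Timd4 to 0.91 for Cd163, and in knockout replicate 3 from -0.52 for Adgre1 to 0.77 for Marco.

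**Figure D3:**
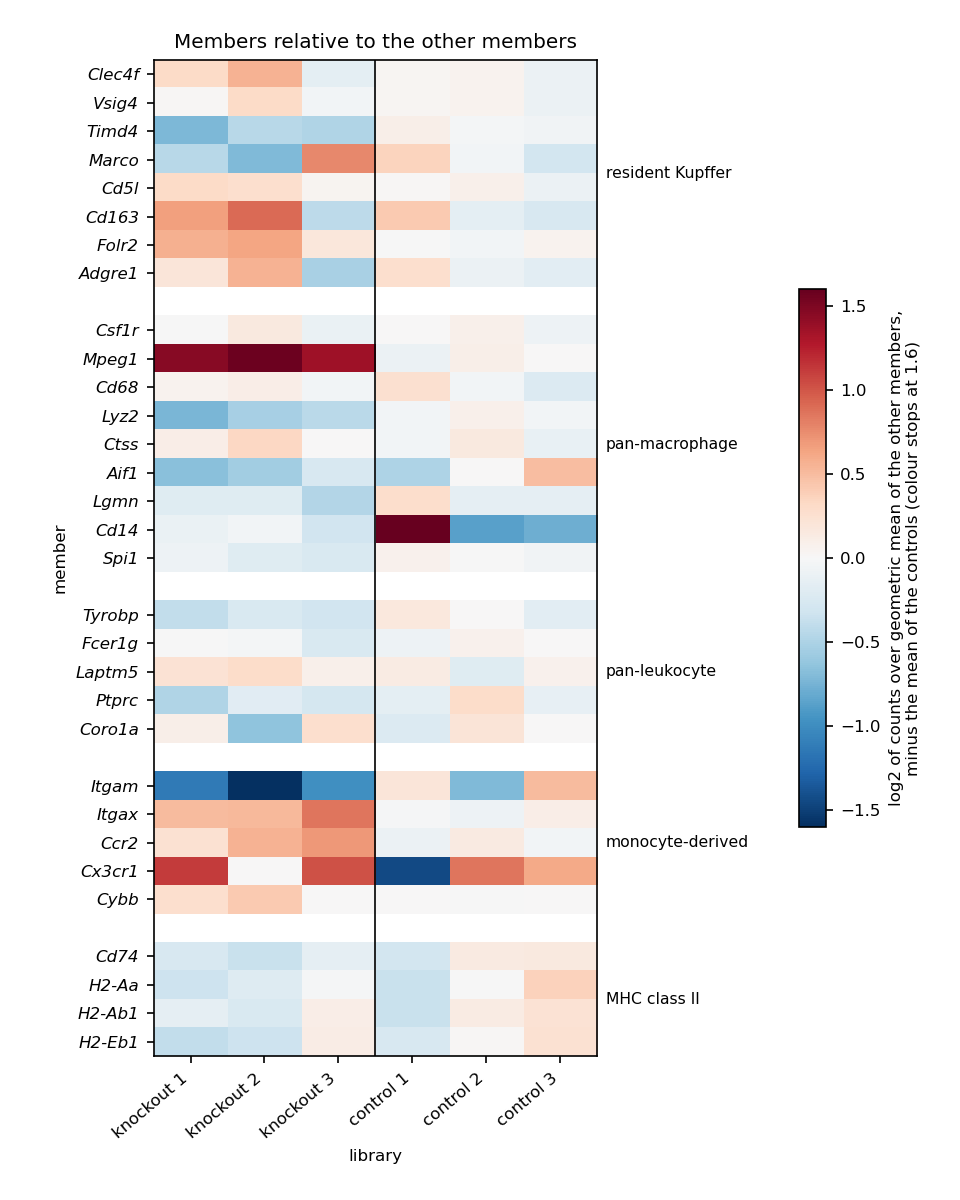
Each marker in each library (columns, knockouts left of the line) as log2 of its counts over the geometric mean of the other 30 markers, minus its mean in the controls; red is above and blue below. The Mpeg1 row is red in all 3 knockouts, at 1.36 to 1.57, and the Timd4 and Lyz2 rows are blue in all 3.

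Nearly all further Kupffer cell genes that were called were higher in the knockout. Of 29 such genes, 14 rose and 1 fell, against 12.6% and 13% of all genes tested, with a median log2 fold change of 0.64. For 18 every knockout library lay above every control library, and for 2 below. Over all genes tested these shares were 23.5% and 22.4%. The summed level of the list was 1510 ± 202 CPM in the knockouts and 1420 ± 44.6 CPM in the controls (SD, n = 3 each). The complement recognition genes C1qa, C1qb and C1qc, made mainly by macrophages, rose with log2 fold changes of 0.68, 0.76 and 0.68 (adjusted p = 0.0046, 0.00323 and 0.00369). C1qb stood at 59.3 ± 4.57 CPM in the knockouts and 35.1 ± 2.39 CPM in the controls (SD, n = 3 each). Il18bp, the decoy receptor for interleukin 18 whose row overlaps Numa1 on the other strand, stood at 17.7 ± 0.179 CPM in the knockouts and 9.23 ± 0.349 CPM in the controls (adjusted p = 0.00226). C6, a complement component that hepatocytes make as well, was the member that fell (-1.35, adjusted p = 0.00788). Id3, the other gene below the controls in every knockout library, did not pass (-1.36, adjusted p = 0.0517). The number that rose was 8 and 9 without knockout replicate 2 and control replicate 3. By library size alone it was 21, with 50.9% of all genes tested then called higher.

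Of 20 monocyte and neutrophil genes 8 had enough counts to be tested, and 1 rose and 1 fell, against 12.6% and 13% of all genes tested. Plac8, found in monocytes, rose to 9.42 ± 0.478 CPM in the knockouts, against 4.14 ± 0.934 CPM in the controls (log2 fold change 1.18, adjusted p = 0.00683). Fibronectin, Fn1, which hepatocytes secrete, fell with -1.1 (adjusted p = 0.00788). The monocyte genes Ly6c2 and Chil3 had 65 and 8 counts over all 6 libraries, and the neutrophil gene Ly6g had 3.

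In the list of MHC class II machinery and dendritic cell genes, 3 of 19 tested were called higher (15.8%) and 1 fell. Over all genes tested 12.6% were called higher and 13% lower. Of the 3, Flt3 and Cd209a passed the filter on low counts through the knockout libraries alone, so their calls are no support. Flt3, the growth factor receptor of dendritic cells, had 1.54 ± 0.468 CPM in the knockouts and 0.319 ± 0.0719 CPM in the controls, and Cd209a, a dendritic cell lectin, had 0.959 ± 0.329 CPM in the knockouts and 0.299 ± 0.0799 CPM in the controls (SD, n = 3 each). H2-DMb2, a chain of the peptide loading factor, rose by 1.69 on the log2 scale (adjusted p = 0.0316). It had 25, 36 and 52 counts in the knockouts and 4, 10 and 8 counts in the controls, where 1 library reached the level of that filter. Without knockout replicate 2 or 3 or control replicate 2 or 3 the number called higher was 1. Rfxap, a subunit of the RFX complex that binds class II promoters, fell with -0.57 (adjusted p = 0.0178), a call that ended without control replicate 2 or 3. Ciita, the master switch of class II genes, had 1.68, 1.81 and 3.62 CPM in the knockouts and 0.39, 1.57 and 1.35 CPM in the controls and did not pass (adjusted p = 0.161). Its highest and lowest library, knockout replicate 3 and control replicate 1, were also those of Cd74, H2-Aa, H2-Ab1 and H2-Eb1.

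Genes of lipid-laden macrophages split. Of 13 tested, 5 were called higher and 2 fell, against 12.6% of all genes tested called higher and 13% lower. The number called higher was 3 without knockout replicate 1 or 2 or control replicate 2 or 3 and 7 without control replicate 1. Trem2, a lipid receptor of such macrophages, had 1.35 ± 0.452 CPM in the knockouts and 0.181 ± 0.144 CPM in the controls, and since it passed the filter on low counts through the knockouts alone its call is no support. Lipoprotein lipase, Lpl, rose and had 121 ± 9.91 CPM in the knockouts and 13.4 ± 0.919 CPM in the controls (log2 fold change 3.18, adjusted p = 5.09e-05). Apoe, made in bulk by hepatocytes, fell with -0.96 (adjusted p = 0.00121). Cd9 fell as well, with 3.75 ± 0.949 CPM in the knockouts and 12.1 ± 3.73 CPM in the controls (-1.69, adjusted p = 0.00572).

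Growth factors and chemokines of macrophages changed in 2 of 11 tested cases, against 25.5% of all genes tested called in either direction. Ccl6 rose to 14.6 ± 3.45 CPM in the knockouts, against 5.86 ± 1.87 CPM in the controls (log2 fold change 1.31, adjusted p = 0.0118), and Ccl9 fell with -0.49 (adjusted p = 0.0348), a call that ended when any single library but control replicate 1 was omitted. The ligands of Csf1r, Csf1 and Il34, did not pass, with log2 fold changes of 0.23 and 0.32 (adjusted p = 0.367 and 0.615). Among 14 tested markers of lymphocytes and NK cells 0 passed in the edgeR fit, and the median was 0.74. At an unadjusted p under 0.05, 3 were higher, while 5990 of all 15135 genes tested passed in either direction. The most abundant of these markers, the interleukin receptor chain Il2rb, had 4 ± 0.277 CPM in the knockouts and 2.05 ± 0.844 CPM in the controls (SD, n = 3 each, adjusted p = 0.0565). DESeq2 called 1 lymphocyte marker, upper-quartile factors gave 2, and library size alone gave 7, with 50.9% of all genes tested then called higher.

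**Figure D4:**
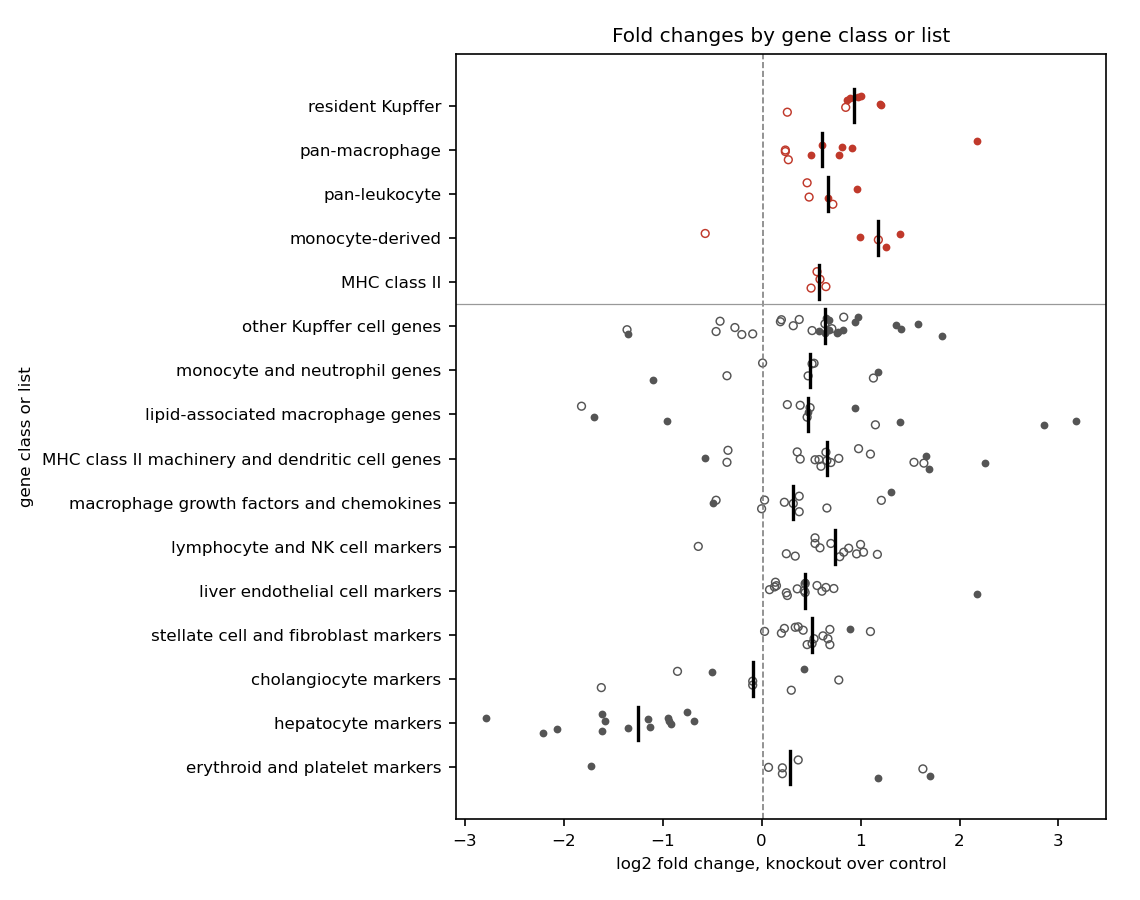
Log2 fold changes, knockout over control, of every tested gene of the 5 marker classes (red) and of 11 other lists (grey), with filled points for an adjusted p under 0.05, a bar at the median of each row and a dashed line at the median of all genes tested, 0.01. All hepatocyte markers lie at or below -0.68, and the resident Kupffer genes lie between 0.26 and 1.21.

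The ChIP lists give a view of chromatin at these genes. The sample titles name RNA poll III as the target and the design text names Lcmr1, so the precipitated protein is given here only as labelled. The knockout list holds 1649 regions and the control list 22793, from 1 library each, so there is no replicate check and no test. In the knockout list 0 of the 31 markers had a region within 1 kb of the start, against 2.01% of all genes tested. In the control list 1 of the 31 had one, Cd68, against 31.9% of all genes tested. The region at Cd68 (chromosome 11, 69665867 to 69666211, mm10) had a fold over background of 3.96 in the authors' list, with its summit 94 bases downstream of the annotated start. A second region, 69667016 to 69667400, had its summit upstream, at -1126 bases from the start. Of 14 hepatocyte markers 4 had a region at the start in the knockout list and 10 in the control list. The levels of the genes behind these shares were not matched.

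The authors' deposited table gives the same contrast from its own fit. In the authors' deposited table, an adjusted p under 0.05 with a positive log2 fold change stood for 16 of the 31 markers and with a negative one for 0, and all 16 were also called above. The authors' deposited table marks 4 of them as significant, Cd163, Folr2, Mpeg1 and Itgax, with log2 fold changes of 1.19, 1.2, 2.17 and 1.39. Ccr2 was the call without an adjusted p under 0.05 in the authors' deposited table, at 0.0986.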

How the data were processed

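RNA was counted in 3 knockout and 3 control libraries, and groups and replicate numbers come from the sample titles. The deposited RNA table holds raw counts per Ensembl gene on mm10, and HISAT2 2.1.0, Bowtie2 2.2.3 and HTSeq 0.6.0 are named, without roles, in the submitters' processing notes. The sources used here give no strand setting or read filter, so reads of overlapping genes on opposite strands cannot be assigned with certainty. The authors' deposited columns of log2 fold change, fold change (ratio) and p-value come from a comparison whose tool is not named for the RNA samples, and the deposited mean of scaled counts (signal) was not used. The deposited ChIP lists are in narrowPeak layout, 1 per library, with the authors' score, fold over background (ratio), -log10 p-value and -log10 q-value. MACS2, BWA, deepTools, SAMtools and DESeq2 are named for them in the submitters' processing notes.

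The filter filterByExpr (at least 10 counts in enough libraries and 15 in all) kept 15135 genes. These were given TMM factors and fitted on genotype alone with edgeR 4.0.16 under R 4.3.3, using the robust quasi-likelihood F-test and Benjamini-Hochberg adjustment over all genes tested, with a threshold of 0.05. SE and 95% intervals come from the same fit. The scripts were tested on simulated counts. The 31 markers, their 5 classes, the 11 other lists and the alternatives were chosen with earlier results of these data known. No chance test of the markers as a set was made. All markers may be named, and from each other list the genes with the smallest adjusted p, or all that passed where few did, plus C1qa, C1qc, C6, Id3, Trem2, Cd9, Ciita, Csf1, Il34, Chil3, Ly6c2, Ly6g, Clec4g, Hba-a1 and Hbb-bs, chosen after their values were seen. Alternatives were library size alone, upper-quartile factors, DESeq2 1.42.0, no count filter, a replicate block and leaving out each library.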

Additional observations from a re-analysis of the deposited data

How the results depend on the processing

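Each result was recomputed under 11 alternatives, and 11 of the 17 markers that rose were called in every one (Clec4f, Vsig4, Cd5l, Csf1r, Mpeg1, Cd68, Ctss, Lgmn, Laptm5, Itgax and Cybb). The number of markers that rose was 28 by library size alone, 17 with upper-quartile factors, 16 with DESeq2, 16 without a count filter, and from 11 to 17 when 1 library was left out, and 0 fell in any fit. The number of all genes called was 3865, 8328 by library size alone and 2236 to 4921 when 1 library was left out, and that of the other lists together was 52, 109 by library size alone and 34 to 59 when 1 library was left out. By library size alone the log2 ratio of the summed level was 1.48 for all markers, 1.55 for resident Kupffer, 1.58 for pan-macrophage, 1.33 for pan-leukocyte, 1.59 for monocyte-derived and 1.15 for MHC class II genes, in place of 0.9, 0.96, 0.99, 0.75, 1.01 and 0.57. The median of all genes moved to 0.6 under that scaling, and the cause of the other changes in counts was not tested. Med19 ranged from -1.84 to -1.3 when 1 library was left out. Signs turned for genes that did not pass: Itgam to 0.02 by library size alone, Aif1 to -0.0049 without knockout replicate 3 and -0.04 without control replicate 1, and Cd14 to -0.08 and -0.06 without control replicates 2 and 3. When 1 library was left out, Aif1 ranged from -0.04 to 0.55 and Cd14 from -0.08 to 1.31. Within the gene body or 5 kb of the start, 1 marker had a region in the knockout ChIP list and 3 in the control list, against 4.85% and 44.2% of all genes tested, and at a -log10 q of 5 or more 0 had one at the start in either, against 0.859% and 20.6%. Same-numbered libraries had correlations of their deviations of 0.11, 0.05 and 0.09, and each library correlated best with its own number. The other pairs ran from -0.09 to 0.02. The labels do not say whether the numbers pair the samples, and correlations this low cannot decide it. With the replicate number as a block, 19 markers and 3468 genes were called, 54 of the other lists, and H2-Aa, H2-Ab1 and H2-Eb1 passed (edgeR adjusted p = 0.0287, 0.033 and 0.0301) while Ccr2 did not (0.0741). Low counts limit Itgam, Ccr2, Cx3cr1 and Folr2.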

Other observations

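Markers of other cells that a liver digest can hold were also measured. Of 16 liver endothelial markers 2 rose and 0 fell, against 12.6% of all genes tested called higher, with a median log2 fold change of 0.44. Lyve1, a hyaluronan receptor of sinusoidal and lymphatic endothelium, had 31.6, 43.4 and 20.9 CPM in the knockouts and 9.06, 6.53 and 5.49 CPM in the controls (log2 fold change 2.18, edgeR adjusted p = 0.00301), and Robo4 rose by 0.44 (adjusted p = 0.0474). The sinusoidal lectin Clec4g had 50.3 ± 6.76 CPM in the knockouts and 42.3 ± 1.53 CPM in the controls (SD, n = 3 each) and did not pass (adjusted p = 0.177). Of 15 tested stellate cell and fibroblast markers the collagen gene Col1a2 rose (0.89, adjusted p = 0.0437) and 0 fell, with a median of 0.51. That is 6.67% called higher, against 12.6% of all genes tested called higher and 13% lower. The number of endothelial markers that rose was 4 without knockout replicate 3 and 1 without knockout replicate 1 or 2 or control replicate 2 or 3, and 16 rose by library size alone. For stellate markers it was 2 without control replicate 3, 0 without knockout replicate 1 or 2 or control replicate 2, and 11 by library size alone. Under that last scaling 50.9% of all genes tested were called higher.

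Platelet and red cell genes went both ways. Among the cholangiocyte markers Tm4sf4 fell (-0.5, adjusted p = 0.0319), a call that ended without any 1 of the knockout libraries or without control replicate 2. Of 8 tested erythroid and platelet markers 2 were called higher and 1 lower, against 12.6% and 13% of all genes tested. The platelet gene Itga2b rose (1.18, adjusted p = 0.00792). The platelet gene Ppbp was called higher too, with 29, 25 and 34 counts in the knockouts and 10, 2 and 5 counts in the controls, but it passed the filter on low counts through the knockouts alone. Of the list 1 gene was called higher without any 1 library other than control replicate 1. Alas2, the haem synthesis enzyme of red cell precursors whose row overlaps Apex2 on the other strand, had 44.5, 50.9 and 23.2 CPM in the knockouts and 87.5, 165 and 138 CPM in the controls and fell (-1.72, adjusted p = 0.0134). The globin genes Hba-a1 and Hbb-bs stood at 8.36 ± 2.51 and 8.22 ± 2.33 CPM in the knockouts, against 8 ± 3.27 and 7.1 ± 2.22 CPM in the controls, and did not pass (adjusted p = 0.904 and 0.637). The part of these cells in the rise of the macrophage genes was not tested.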
